A study of Mus musculus with 10 samples.

Results

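The DNA replication genes are 40 mouse genes whose products license, unwind, prime, copy and join DNA or supply its building blocks. They were chosen by name, and 89 probe sets of the array, out of 45037 that are not controls, are annotated to one of them alone. All 40 genes had a probe set bright enough to be tested, 79 of the 89 probe sets in all. RNA came from whole embryonic mouse ovary at 5 stages named by days of embryonic development, the early E11.5 and E12.5, the middle E14.5 and E16.5, and the late E18.5. Each stage had 2 arrays, 10 in all. The design text says the ovary preparations were independent, and the labels name no strain, genotype, treatment or pool size for any stage. A probe set is a group of short probes that together give 1 signal, and some sets can bind more than 1 transcript. Its signal is given after scaling each array to a common 75th percentile.

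Replication begins when the origin recognition complex, Cdc6 and Cdt1 load the MCM2-7 ring onto DNA, a step called licensing, which geminin (Gmnn) holds back by binding Cdt1. Cdc45 and the GINS complex then turn the ring into a moving helicase, primase with polymerase alpha starts each strand, and the clamp Pcna, set by the Rfc loader, ties polymerases delta and epsilon to DNA. In the fetal ovary the germ cells divide by mitosis, copy their DNA a last time before meiosis, and then stay in meiotic prophase without copying it, while somatic cells around them go on dividing or stop by their own schedule. Many of these genes are known targets of E2F factors in dividing cells.

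One array, E12.5 replicate 2, stood apart from the rest and was left out of the fit. Across probe sets (a description, since probe sets are no replicates) its log2 signals had r from 0.418 to 0.470 with each other array. Among the remaining 9 arrays r was 0.873 to 0.964. E12.5 is therefore a single array, replicate 1, and its values are given with no test. The Actb control, whose 3′ and 5′ probe sets differ more where RNA is shortened, had a 3′ over 5′ ratio of 10.6 there, while the 8 arrays of the stages tested lay between 1.51 and 2.22. The arrays fell into 3 wash runs, as they are called here, told apart by the hybridization date in their settings. The first held both early stages, the second held E14.5 and E16.5, and the last held E18.5. Only the step between E14.5 and E16.5 therefore compares 2 arrays a stage within a run, and elsewhere run and stage cannot be told apart. Markers of ovarian somatic and germ cells were measured at both ends of the span. Foxl2, a transcription factor of ovarian supporting cells, had a signal of 135 ± 18 at E11.5 and 462 ± 2.76 at E18.5, and Ddx4, a germ cell helicase, 174 ± 9.78 and 547 ± 87.7 (SD, n = 2 each). Over the span 5 of the 12 ovarian somatic markers rose and 2 fell, Wt1 (-1.03 ± 0.18) and Nr5a1 (-0.97 ± 0.25), and 8 of the 10 germ cell markers rose and 2 fell, Pou5f1 (-2.55 ± 0.48) and Dppa5a (-2.56 ± 0.23). Markers of liver and exocrine pancreas were also present, as given at the end.

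Over the whole span 18 of the 40 replication genes fell between E11.5 and E18.5 and 0 rose, where 16.4% of all genes tested fell and 13.3% rose. At an unadjusted p under 0.05 the counts were 23 lower and 1 higher. The shares of all genes that fell or rose are given at an adjusted p only. They are therefore no measure for counts at an unadjusted p, here or below. The test was limma with 1 mean per stage on 9 arrays, an adjusted p under 0.05 counted as passed, and each gene was represented by its brightest tested probe set. The median change of the 40 genes was -0.61 on the log2 scale, against -0.00 for all genes. The genes that fell were Mcm2, Mcm4, Mcm6 and Mcm7 of the helicase, the loaders Cdc6 and Cdt1, Cdc45 and Gins1 of helicase activation, and the clamp loader subunits Rfc2 and Rfc3. With them fell Pola1, Prim1 and Prim2 of priming, Rpa1 and Rpa3 of the protein that coats single strands, and Rrm1, Rrm2 and Tk1 of nucleotide supply. With all 10 arrays in the fit 0 passed in either direction in limma (8 lower and 0 higher at an unadjusted p under 0.05). The median SE over all probe sets was then 0.503 against 0.275 with 9. Few probe sets of any gene passed over the span in that fit, 302 of 28857 tested, against 7215 of 27510 with 9 arrays. In bulk tissue, fewer replicating cells and less of these RNAs per cell cannot be told apart.

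**Figure D1:**
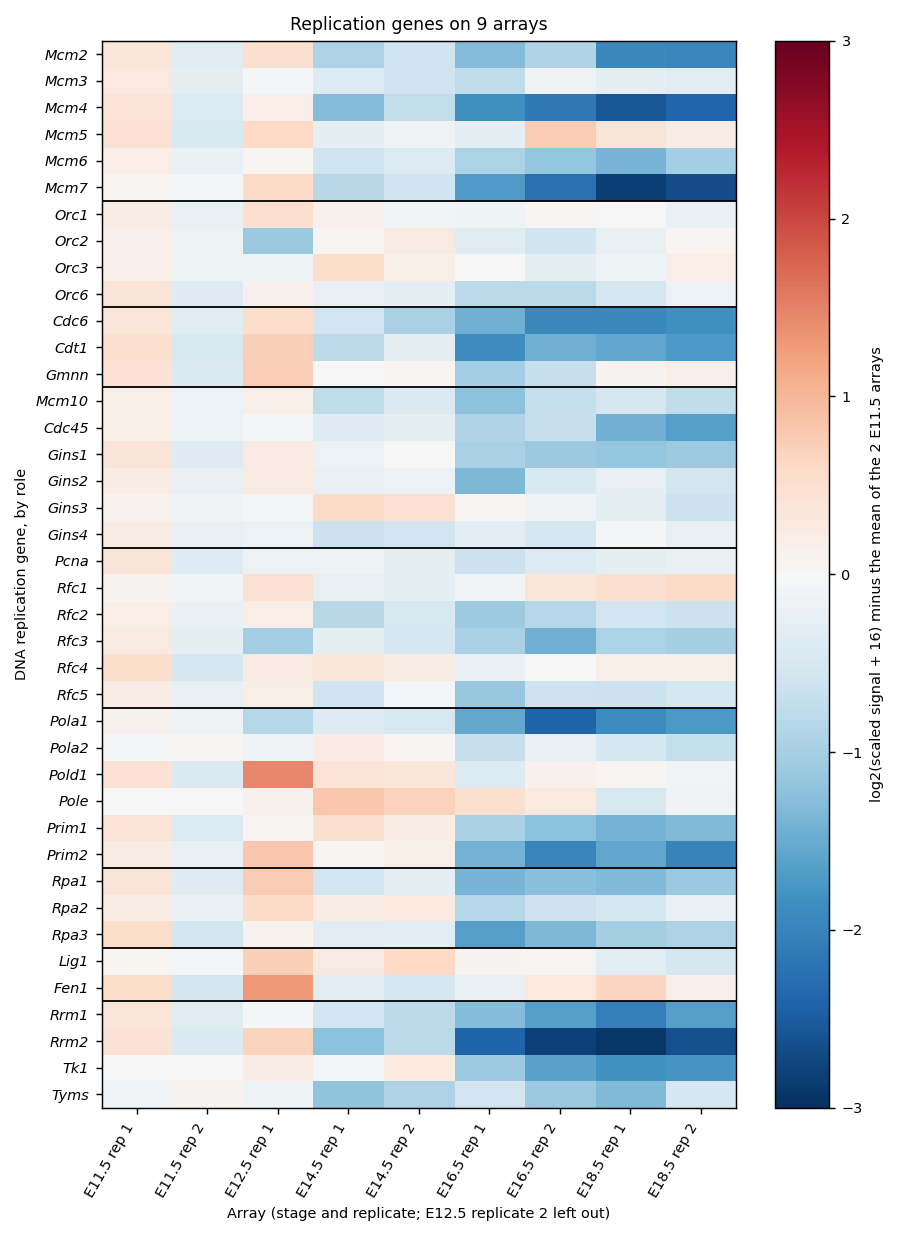
Color gives log2(scaled signal + 16) of each replication gene minus the mean of its 2 E11.5 arrays, in columns for the 9 arrays of the fit, with lines between roles (from the top: helicase ring, origin recognition, licensing, helicase activation, clamp and loader, polymerases and primase, single-strand binding, fragment joining, nucleotide supply). Blue deepens between the E14.5 and E16.5 columns for Mcm7, Cdc6, Pola1, Prim2, Rrm2 and Tk1.

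Of the 3 steps between successive tested stages, that from E14.5 to E16.5 held most of the calls. In it, within 1 wash run, 9 of the 40 genes fell and 0 rose, against 2.53% of all genes lower and 1.16% higher, with a median change of -0.57 against -0.04. At an unadjusted p under 0.05 these counts were 24 lower and 0 higher, a threshold at which no share of all genes is given. The 9 were Mcm7, Gins1, Pola1, Prim1, Prim2, Rpa2, Rpa3, Rrm2 and Tk1. From E11.5 to E14.5 only Mcm4 fell (-1.01 ± 0.27, adjusted p = 0.0485 in limma) and 0 rose, where 2.13% of all genes fell and 3.48% rose (11 lower and 3 higher at an unadjusted p under 0.05). From E16.5 to E18.5 0 passed in either direction in limma, where 0.271% of all genes fell and 0.842% rose (5 lower and 1 higher at an unadjusted p under 0.05). For 26 of the 40 genes the deepest of the 3 steps was the one from E14.5 to E16.5, which held the deepest step of 38.7% of all genes. Both arrays of the later stage lay under both of the earlier for 31 genes and above for 3 in this step, where 30.6% of all genes lay under and 22.8% above. In the first step these counts were 15 and 5 (27.4% and 24.6% of all genes), in the last 9 and 10 (21.8% and 25.5%), and over the span 26 and 1 (34.4% and 33.4%). No share of all genes is given for the refits that follow. The count lower in the middle step rests on few arrays. It became 0 without E14.5 replicate 2 or E16.5 replicate 2, 3 without E14.5 replicate 1, 15 without either E11.5 array, 1 without the intensity trend in the variance prior, and 10 in a fit of its 4 arrays alone. The count lower in the first step was 0 in 6 of the 8 fits that left out 1 array of these stages, and 6 without E11.5 replicate 2.

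**Figure D2:**
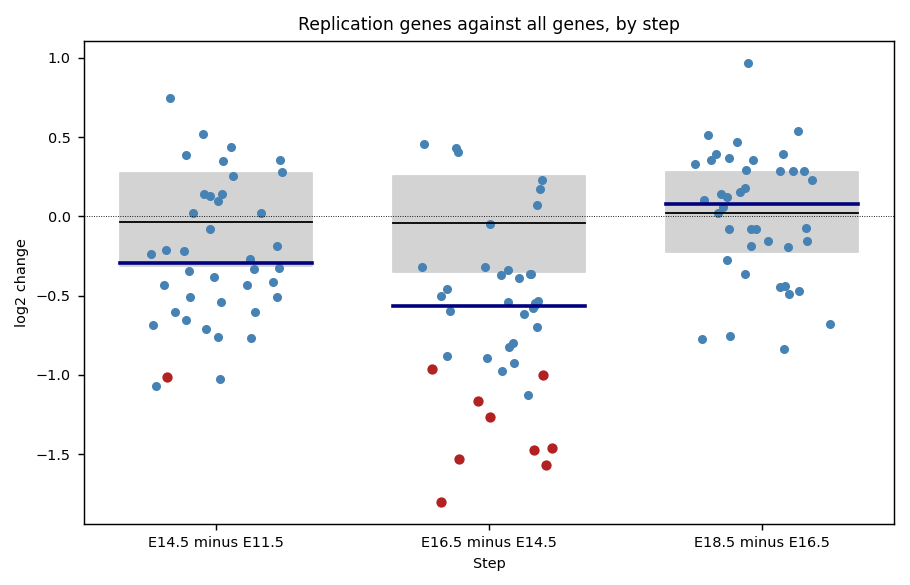
Each point is 1 of the 40 replication genes, with its log2 change (vertical axis) in 1 of 3 successive steps, red where it passed limma at an adjusted p under 0.05. The dark blue bar is the median of the 40 genes, and the grey box and black line are the quartiles and median of all 13305 genes tested. The medians of the replication genes were -0.30, -0.57 and 0.08, and those of all genes -0.03, -0.04 and 0.02.

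By the limma F test over the 4 stages with 2 arrays, 25 of the 40 genes changed, against 27.7% of all genes. The mean was highest at E11.5 for 23 of the 40, at E14.5 for 13, at E18.5 for 4 and at E16.5 for none, stages that held the highest mean of 33.9%, 19%, 30% and 17.1% of all genes. Lowest means were split between E16.5 and E18.5 with 17 genes each, and 6 were lowest at E14.5, stages that held the lowest mean of 22.4%, 28.4% and 19.7% of all genes. Among the 13 highest at E14.5 were Pole, Lig1, Gins3, Prim1, Prim2, Tk1, Rpa2, Orc2, Orc3 and Pola2.

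The MCM2-7 ring, the core of the replicative helicase, had 4 of 6 genes lower at E18.5, beside 16.4% of all genes. Mcm7, one of its subunits, read 4123 and 3759.5 at E11.5, 5878 on the single E12.5 array, 2215 and 2604 at E14.5, 1200.3 and 819 at E16.5, and 544 and 604 at E18.5. The stages followed each other downward with no overlap between any of the 4 tested stages, and the single E12.5 array lay above both E11.5 arrays. Its change over the span was -2.75 ± 0.22 (adjusted p = 2.73e-06), a level 6.70 times lower on the log2(signal + 16) scale, and the step from E14.5 to E16.5 alone was -1.26 ± 0.22 (adjusted p = 0.0122). These Mcm7 values came from an _s_at set, a kind left out in a later choice of probe sets. Its other 3 probe sets fell over the span too, with changes from -1.11 to -2.44, or levels 2.16 to 5.44 times lower. Among them was a set that read 1295 on the single E12.5 array, under both E11.5 arrays (2064 and 1780). The brightest set of Mcm4 was an _x_at set, some of whose probes can bind other transcripts by the array maker's naming. Mcm4 signals on it were 2236 and 1276 at E11.5, 1942 on the single E12.5 array, 679 and 1011 at E14.5, 462 and 370.0 at E16.5, and 277 and 311 at E18.5. Both arrays of each stage again lay under both of the stage before, E12.5 aside, and the span gave -2.46 ± 0.27 (adjusted p = 3.59e-05), with -1.54 ± 0.20 on its second probe set. Mcm2 changed by -1.94 ± 0.25 and Mcm6 by -1.21 ± 0.22 (adjusted p = 1.21e-04 and 0.00144). The Mcm2 value was from an _s_at set too, and its plain _at set gave -2.03 ± 0.20.

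Mcm3 and Mcm5, the remaining ring subunits, did not pass on their brightest probe sets, with -0.31 ± 0.25 and 0.30 ± 0.33. Their probe sets differed in size, and for Mcm5 in sign. The brightest one of Mcm5, an _x_at set, some of whose probes can bind other transcripts by the array maker's naming, read 2949 and 1534 at E11.5, 3249.7 on the single E12.5 array, 1770.1 and 1971 at E14.5, 1775 and 3598 at E16.5, and 2769.8 and 2500.5 at E18.5. A second set, without that suffix, read 1006 and 769 at E11.5, 656 on the single E12.5 array, 837 and 868 at E14.5, 538 and 440.3 at E16.5, and 354 and 399.5 at E18.5, and it fell by 1.19 ± 0.20 (adjusted p = 9.18e-04). Signals on the first overlapped between E11.5 and E18.5, and on the second both E18.5 arrays lay under all those of E11.5 and E14.5. Mcm3 had 5 tested probe sets, all with a change below 0 and 2 of them past the test, at -1.12 ± 0.27 and -1.09 ± 0.22 (adjusted p = 0.00785 and 0.0033).

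In the licensing group the loaders Cdc6 and Cdt1 fell and geminin did not pass. Cdc6 read 297 and 175 at E11.5, 334 on the single E12.5 array, 149.6 and 109 at E14.5, 73.6 and 48.1 at E16.5, and 48.4 and 52.5 at E18.5. Every array from E14.5 on lay under both E11.5 arrays, and E16.5 and E18.5 overlapped. The change over the span was -1.88 ± 0.28 (adjusted p = 3.96e-04) for Cdc6 and -1.64 ± 0.29 (adjusted p = 0.00124) for Cdt1, and the other tested Cdt1 probe set gave -1.92 ± 0.21. Gmnn, the inhibitor of Cdt1, read 1506 and 816 at E11.5, 1874 on the single E12.5 array, 1094 and 1164 at E14.5, 539 and 682 at E16.5, and 1175 and 1233 at E18.5. Both E16.5 arrays were under all arrays of every other stage, and E18.5 lay between the E11.5 arrays. Its steps were -0.88 ± 0.25 from E14.5 to E16.5 and 0.97 ± 0.25 from E16.5 to E18.5, neither past the test (adjusted p = 0.0785 and 0.123), though it changed by the F test over the 4 stages (adjusted p = 0.0333).

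The origin recognition complex, which marks origins before licensing, had 0 of 4 genes past the test over the span on the brightest probe sets. Of all genes 16.4% fell and 13.3% rose, and with 4 genes a count of 0 is not apart from those shares. Changes were -0.10 ± 0.23 for Orc1, -0.08 ± 0.22 for Orc2, 0.03 ± 0.22 for Orc3 and -0.35 ± 0.24 for Orc6. From E14.5 to E16.5 none of the 4 passed either, though the median change was -0.54, with both later arrays under both earlier ones for Orc2 (-0.62 ± 0.22), Orc3 (-0.50 ± 0.22) and Orc6 (-0.58 ± 0.24). Orc3 read 415 and 329 at E11.5, 337 on the single E12.5 array, 539 and 421 at E14.5, 366 and 300.4 at E16.5, and 336 and 424 at E18.5. Those stages overlapped at the ends, with both E14.5 arrays above both of E11.5. Orc1 had a second probe set, reading 255 and 269.7 at first and 90.9 and 132 at E18.5, and it fell by 1.14 ± 0.26 (adjusted p = 0.00542). The 3 tested probe sets of Orc2 ran from -0.12 to 0.50, on both sides of 0. Of the 9 tested probe sets of the complex that of Orc1 was the only one past the test.

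Of the genes that activate the loaded ring, Cdc45 and Gins1 fell. Cdc45, which joins MCM2-7 and GINS in the active helicase, read 230.1 and 179.6 at E11.5, 197 on the single E12.5 array, 152 and 162 at E14.5, 101 and 119.7 at E16.5, and 64.5 and 53.8 at E18.5. Its arrays stepped down without overlap at each of the 3 steps, by 1.55 ± 0.23 over the span (adjusted p = 3.17e-04). A second Cdc45 probe set had 0.57 ± 0.30 over the span (adjusted p = 0.182), reading 43.4 and 62.4 on the E11.5 arrays, 173 and 153 on those of E14.5 and 75 and 96.6 at E18.5. That set rose from E11.5 to E14.5 by 1.39 ± 0.30 (adjusted p = 0.018), and with both averaged Cdc45 was no longer called (-0.49, adjusted p = 0.09). Gins1, a GINS subunit, changed by -1.12 ± 0.24 (adjusted p = 0.00456). The other subunits Gins2, Gins3 and Gins4, with -0.39 ± 0.27, -0.46 ± 0.23 and -0.14 ± 0.20, and the activation factor Mcm10, with -0.63 ± 0.24, did not pass.

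The priming genes Prim2, Pola1 and Prim1 all fell from E14.5 to E16.5. Prim2, the large primase subunit, read 535 and 394 at E11.5, 823 on the single E12.5 array, 468 and 518 at E14.5, 161 and 105 at E16.5, and 147 and 102 at E18.5. E11.5 and E14.5 overlapped, and all 4 later arrays lay under every earlier one. The step from E14.5 to E16.5 was -1.80 ± 0.25 (adjusted p = 0.0038), with 0.10 ± 0.25 before it and -0.08 ± 0.25 after it, neither past the test. Pola1, the catalytic subunit of polymerase alpha, read 406 and 332 at E11.5, 197 on the single E12.5 array, 276 and 259.7 at E14.5, 116 and 57 at E16.5, and 86.1 and 100.4 at E18.5. Its E16.5 arrays differed from each other more than its E14.5 arrays did, and both were under all earlier ones, with -1.53 ± 0.27 for the step (adjusted p = 0.0122) and -1.81 ± 0.27 for the span. Prim1, the small primase subunit that makes the RNA primer, followed with -1.46 ± 0.25 for the step (adjusted p = 0.0116). Its second probe set gave -2.10 ± 0.30.

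The other polymerase genes did not pass over the span on their brightest probe sets. Pole, the catalytic subunit of the leading-strand polymerase epsilon, read 169 and 168 at E11.5, 184 on the single E12.5 array, 305 and 282 at E14.5, 241 and 209 at E16.5, and 116 and 155 at E18.5. Both E14.5 arrays were above all arrays of the other stages, and it changed by the F test (adjusted p = 0.0120), although no single step passed. Pold1, the catalytic subunit of polymerase delta, had -0.01 ± 0.27 on an _x_at set, while its other set fell by 1.06 ± 0.22 (adjusted p = 0.0039). Pola2, the second subunit of polymerase alpha, changed by -0.61 ± 0.23 (adjusted p = 0.0631).

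Among the clamp and its loader, Rfc3 and Rfc2 fell and the others did not pass. Rfc3, a small loader subunit, read 699 and 477 at E11.5, 274 on the single E12.5 array, 478 and 404 at E14.5, 287 and 202 at E16.5, and 289 and 283 at E18.5. E16.5 and E18.5 lay together under E11.5 and E14.5, with -0.97 ± 0.23 for the span (adjusted p = 0.00784) and -1.08 ± 0.22 on its second probe set. That call was lost without E11.5 replicate 1 (-0.71) and without either E18.5 array (-0.99 and -0.96). Rfc2 changed by -0.61 ± 0.21 (adjusted p = 0.047), a call lost with E11.5 replicate 1 or any array of E14.5 or E18.5 left out (-0.41 without the first of these), after quantile normalization (-0.34) and on the deposited scale (-0.48). It was also lost with the replicate block (adjusted p = 0.0605), with no filter (0.0632), without the intensity trend (0.102) and with probe sets averaged (0.132). Pcna, the clamp itself, read 6433 and 3757 at E11.5, 4369 on the single E12.5 array, 4398 and 4069 at E14.5, 3126 and 3669 at E16.5, and 4032 and 4244 at E18.5. Its E11.5 arrays spanned those of E14.5 and E18.5, and the span gave -0.25 ± 0.26 (adjusted p = 0.511). Rfc1, the large loader subunit, had both E18.5 arrays above both E11.5 arrays (611 and 649 against 453 and 409) and 0.53 ± 0.20 (adjusted p = 0.0659), short of the test. On values as deposited its change was 0.67 and passed (adjusted p = 0.0196), as it did after quantile normalization (0.77) and without either E16.5 array (0.53). Rfc4 and Rfc5 had 0.18 ± 0.27 and -0.59 ± 0.25.

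The single-strand binding protein RPA has a large, a middle and a small subunit. Rpa1, the large one, read 3336 and 1968 at E11.5, 4361 on the single E12.5 array, 1714 and 2102 at E14.5, 969 and 1060.2 at E16.5, and 1013 and 1169 at E18.5. All arrays from E16.5 on lay under all those before, and the span gave -1.22 ± 0.25 (adjusted p = 0.00284). Rpa2 and Rpa3 fell from E14.5 to E16.5 by 1.00 ± 0.21 and 1.16 ± 0.28 (adjusted p = 0.0287 and 0.0439). From E16.5 to E18.5 both had higher arrays with no overlap, 0.37 ± 0.21 and 0.54 ± 0.28, without passing. Over the span Rpa3 fell by 0.96 ± 0.28 (adjusted p = 0.0235), a call lost without E11.5 replicate 1 (-0.41) and without either E18.5 array (-0.92 and -0.99), after quantile normalization (-0.63) and without the intensity trend (adjusted p = 0.0694). Rpa2 had -0.37 ± 0.21.

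Both enzymes that finish lagging-strand fragments stayed short of the test over the span. Lig1, the ligase that seals them, read 521 and 485 at E11.5, 835 on the single E12.5 array, 613 and 766 at E14.5, 537 and 517 at E16.5, and 394 and 348 at E18.5. Its E14.5 arrays were above those of E11.5 and its E18.5 arrays under them, with -0.42 ± 0.19 for the span and a change by the F test (adjusted p = 0.0280). Fen1, the nuclease that trims the flaps, had 0.40 ± 0.31 on an _x_at set and fell by 1.04 ± 0.23 on its other set (adjusted p = 0.00567).

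Nucleotide supply had 3 of its 4 genes lower over the span, beside 16.4% of all genes. Rrm2, the small subunit of ribonucleotide reductase that limits it in S phase, was read by an _x_at set. Rrm2 signals on it were 3104 and 1686 at E11.5, 3654 on the single E12.5 array, 965 and 1293 at E14.5, 423 and 317 at E16.5, and 291 and 352 at E18.5. The Rrm2 change over the span was -2.78 ± 0.27 (adjusted p = 1.55e-05), a level 6.85 times lower and not apart from that of Mcm7 by more than the SE (leaving out 1 array gave -3.21 to -2.34 for Rrm2 and -2.82 to -2.67 for Mcm7), with -1.57 ± 0.27 from E14.5 to E16.5. The other 2 probe sets fell by 1.82 ± 0.19 and 2.20 ± 0.22. Rrm1, the large subunit, fell by 1.85 ± 0.25 (adjusted p = 1.95e-04). Tk1, the thymidine salvage kinase, read 354 and 349 at E11.5, 415 on the single E12.5 array, 339.6 and 437 at E14.5, 158 and 104 at E16.5, and 89.2 and 92.1 at E18.5. Its E11.5 and E14.5 arrays overlapped, and from E14.5 to E16.5 it fell by 1.48 ± 0.23 (adjusted p = 0.00701). Tyms, thymidylate synthase, had 4 probe sets under its name alone, of which 1 was tested, at 13.5 to 62.3, near the filter level of 47.7. That set changed by -0.92 ± 0.43 (adjusted p = 0.129), and a further set annotated to both Tyms and a pseudogene is not used here.

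**Figure D3:**
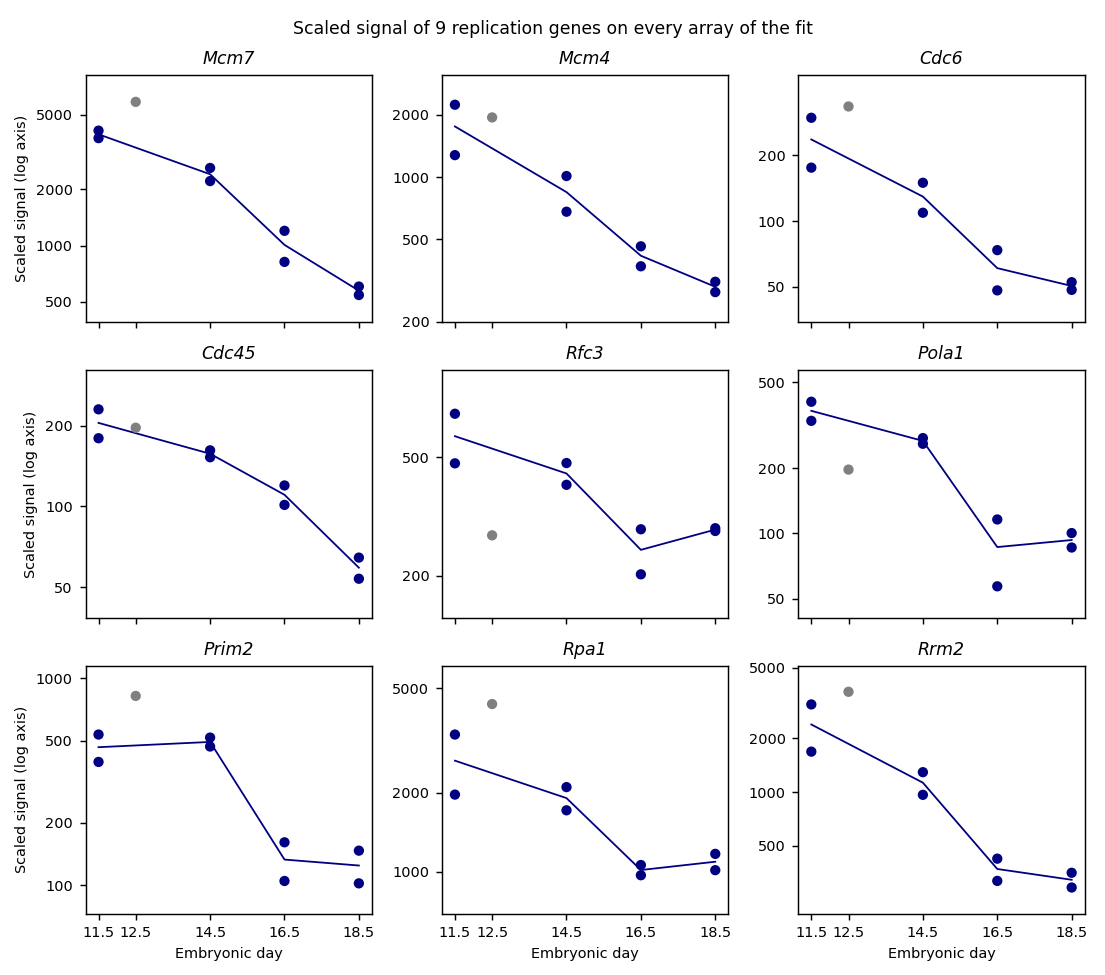
Points are the scaled signal (log axis) on every array of the fit by embryonic day for 9 replication genes, with grey for the single E12.5 array, and the line joins the means of the 4 stages with 2 arrays. Mcm7, Mcm4 and Cdc45 step down at each stage, and Prim2 is level between E11.5 and E14.5 and lower from E16.5 on.

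Across probe sets the direction was mostly shared within a gene. Of the 27 genes with 2 or more tested probe sets, 22 had all changes on 1 side of 0, and the sign differed for Mcm5, Orc2, Cdc45, Rpa2 and Fen1. At least 1 probe set was lower in 23 genes and higher in 0, against 21.2% and 17.5% of all genes, the added ones being Mcm3, Mcm5, Orc1, Pold1 and Fen1. Every tested probe set was lower in 15, against 8.92% of all genes. Taking the brightest set that is neither _x_at nor _s_at, a choice made after the data were seen, gave 21 genes lower and 0 higher. No share of all genes is given for that choice. The median change was -0.45 over the 11 _x_at sets and -0.61 over the 50 plain _at sets.

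**Figure D4:**
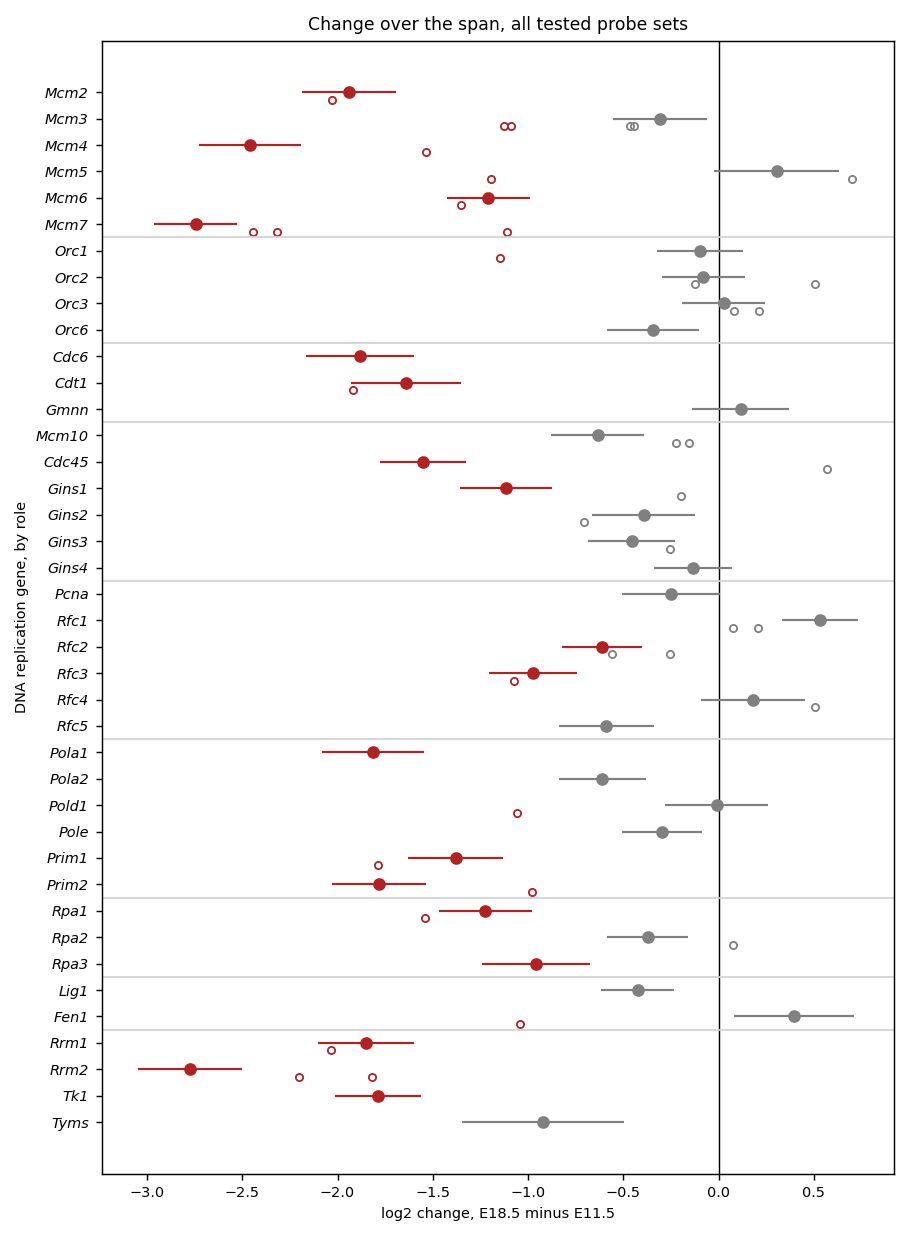
Filled points are the log2 change from E11.5 to E18.5 of each gene's brightest probe set with its SE, and open points are its other tested probe sets, red where they passed limma at an adjusted p under 0.05, with lines between the same roles as before. Red points run from -2.78 (Rrm2) to -0.61 (Rfc2). Some open points of Mcm5, Mcm7, Cdc45 and Fen1 lie far from the filled ones.

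The E11.5 arrays did not match each other for these genes. Replicate 1 was higher than replicate 2 for 38 of the 40 genes, by a median of 0.45 on the log2 scale, against 57.7% of all genes and a median of 0.07. At E14.5, E16.5 and E18.5 replicate 1 was higher for 17, 20 and 17 of the 40. The change from E11.5 to E18.5 depended on which E11.5 array was kept. For Rfc4 it was 0.18 with both, 0.71 without replicate 1 and -0.35 without replicate 2. For Fen1 these values were 0.40, 0.95 and -0.16. 

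On the single E12.5 array 19 of the 40 genes were above both E11.5 arrays, 5 under both and 16 between them, where 50.1% of all genes were above both and 29.4% under both. Probe sets of the same gene lay further apart there than on the 4 arrays of the middle run. For each probe set the log2 departure from the mean of the stages before and after was taken, and its range within a gene had a median of 0.93 over the 27 genes, widest for Mcm3 at 3.45. On those 4 arrays that median was 0.28 to 0.43. Rrm2 read 3654 on its brightest probe set, above both E11.5 arrays, and 191 on another, against 919 and 858 for the latter at E11.5. Rrm1 likewise read 1296 on the brightest and 286 on another, where E11.5 had 1665 and 1188. Of 11 _x_at sets 8 were above both E11.5 arrays and 0 under both, and of 50 plain _at sets 16 were above and 17 under. The part of the Actb ratio of 10.6 in this was not tested.

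E2F factors bind DNA near the start of many of these genes in dividing cells, so promoters of those that fell are shown. The promoter is the stretch from 250 bases before to 50 after the gene start in the RefSeq table (build GRCm38.p6), which held 32 of the 40 genes. An E2F-type motif was searched as TTTCCCGC, TTTCGCGC, TTTGCCGC or TTTGGCGC on both strands, where matches may overlap each other. It was found in a promoter of 13 of the 32 genes, or 40.6%, against 2.26% of all 32851 promoters and 2.60% of all genes in the table. Of the genes that fell 6 of 14 held a match and of the rest 7 of 18, a difference that was not tested. CCAAT was found for 21 of the 32 (65.6%, against 41.1% of all genes and 37.4% of all promoters), and TTTGAA or TTCGAA for 6 (18.8%, against 21.7% and 19.2%). A match is a run of letters and not evidence of binding. The 3 genes with the deepest fall among those with an E2F-type match are given 5′ to 3′ along the gene's strand, with the matches in capitals. For Mcm7 it is the one of 2 listed promoters that has a match.
Mcm7, chr5:138171834-138172133, minus strand: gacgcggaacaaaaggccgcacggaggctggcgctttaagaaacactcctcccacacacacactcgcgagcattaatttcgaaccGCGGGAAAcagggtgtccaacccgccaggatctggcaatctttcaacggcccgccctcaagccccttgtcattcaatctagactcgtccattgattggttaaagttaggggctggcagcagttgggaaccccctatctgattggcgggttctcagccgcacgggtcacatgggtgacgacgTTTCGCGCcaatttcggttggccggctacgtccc
Cdc6, chr11:98907901-98908200, plus strand: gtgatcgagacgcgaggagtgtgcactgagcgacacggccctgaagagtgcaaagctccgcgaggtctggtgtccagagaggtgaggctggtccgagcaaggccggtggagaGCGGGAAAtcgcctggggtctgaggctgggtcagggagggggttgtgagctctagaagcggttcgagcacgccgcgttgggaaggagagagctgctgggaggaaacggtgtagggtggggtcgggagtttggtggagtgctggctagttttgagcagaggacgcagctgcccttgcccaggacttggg
Pola1, chrX:93632106-93632405, minus strand: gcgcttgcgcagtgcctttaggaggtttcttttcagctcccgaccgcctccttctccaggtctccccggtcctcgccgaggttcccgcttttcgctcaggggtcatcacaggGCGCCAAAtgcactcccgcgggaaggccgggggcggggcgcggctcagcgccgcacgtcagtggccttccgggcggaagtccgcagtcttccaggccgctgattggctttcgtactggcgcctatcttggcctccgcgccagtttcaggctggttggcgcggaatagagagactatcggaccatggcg
The matches in Mcm7 began 165 bases before and 16 bases after the gene start, and those in Cdc6 and Pola1 each began 138 bases before it.

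Other genes of the pathway, listed with earlier results of these data known, had more members lower than higher over the span. Of 40 tested genes of 42, 20 were lower and 2 higher at E18.5, against 16.4% and 13.3% of all genes, with a median of -0.69 against -0.00. Pclaf, a Pcna-binding protein, fell (-2.83 ± 0.28), as did Dna2, a nuclease of lagging-strand fragments (-2.65 ± 0.24), Top2a, which untangles copied DNA (-1.98 ± 0.20), and Dck, a deoxycytidine salvage kinase (-1.90 ± 0.27). The 2 that rose were Rrm2b, the reductase subunit used outside S phase, by 1.15 ± 0.23 (adjusted p = 0.00239), and Pold4, a small polymerase delta subunit, by 0.81 ± 0.27 (adjusted p = 0.0436), both named after their values were seen. From E14.5 to E16.5 5 of the 40 fell and 0 rose, where 2.53% of all genes fell and 1.16% rose.

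Of 29 genes that govern entry into S phase 15 were lower and 5 higher (16.4% and 13.3% of all genes), with a median of -0.59. Skp2, which marks the inhibitor Cdkn1b for destruction, fell (-2.14 ± 0.19), and so did the E2F genes E2f8 (-1.95 ± 0.49), E2f5 (-1.60 ± 0.32) and E2f6 (-1.39 ± 0.19). The E2f8 signal was low, with means of 90.3 at E11.5 and 13.9 at E18.5. Of the other E2F genes E2f7 (-1.24 ± 0.23), E2f1 (-0.85 ± 0.27) and E2f3 (-0.72 ± 0.22) fell, and E2f2 (-0.53 ± 0.49) and E2f4 (-0.35 ± 0.30) did not pass. The 5 higher were Cdk6 (1.25 ± 0.27), the pocket proteins Rb1 (0.79 ± 0.25) and Rbl2 (0.84 ± 0.23), which hold E2F in check, and the kinase inhibitors Cdkn1b (1.31 ± 0.22) and Cdkn1c (0.79 ± 0.23), named after their values were seen. Of the same families the kinase inhibitor Cdkn1a fell (-1.29 ± 0.19, adjusted p = 4.01e-04), and Rbl1 (-0.43 ± 0.23) and Cdkn2c (0.14 ± 0.27) did not pass. Of 17 tested genes of mitosis out of 18, 15 were lower and 0 higher (again beside 16.4% and 13.3%), with a median of -1.22. Cdc20, an activator of the anaphase-promoting complex, fell (-2.60 ± 0.31), as did the spindle kinase Aurka (-1.75 ± 0.22), the centromere histone Cenpa (-1.64 ± 0.20) and Mki67, a marker of dividing cells (-1.56 ± 0.20). From E14.5 to E16.5 1 of the 29 fell and 1 rose, and 6 of the 17 fell and 0 rose, beside 2.53% and 1.16% of all genes.

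Markers of the cells that the tissue holds also moved over these days. The summed signal of 10 germ cell markers was 3882 and 5300.0 at E11.5, 9454 and 9494 at E14.5, 5178 and 5485 at E16.5 and 10889 and 10979 at E18.5, with E16.5 under E14.5 and E18.5. These 10 did not move alike. From E14.5 to E16.5 the change was below 0 for 7 of them, with 5 past the test. Means went from 2414 to 882 for Dazl, 1834 to 196 for Dppa5a and 765 to 82.7 for Dppa3. Those of Stk31 (1213 to 1411), Mov10l1 (237 to 357) and Tex101 (775 to 844) rose without passing. At E18.5 the mean of Dppa3 was 3304. The summed signal of 10 meiosis markers was 255 and 262 at E11.5, 8888 and 9963 at E14.5, 8092 and 8707 at E16.5, and 7879 and 8599 at E18.5. From E14.5 to E16.5 3 of these 10 fell, Stra8, Rec8 and Hormad1, and 1 rose, Sycp1, beside 2.53% and 1.16% of all genes. For 12 ovarian somatic markers the sum was 7595 and 9131 at E11.5 and 9592 and 9934 at E18.5. Red cell markers, 7 tested of 10, summed to 21685 and 29010.2 at E11.5, 12068 and 13966 at E14.5, 1199 and 1563 at E16.5 and 1554 and 1696 at E18.5, lower at each of the first 2 steps. That sum was carried by the embryonic globins Hba-x, Hbb-bh1 and Hbb-y, which fell over the span (-6.84 ± 0.20, -6.71 ± 0.25 and -4.01 ± 0.28), while Alas2 (0.83 ± 0.20) and Gata1 (1.03 ± 0.26) rose, and the median of the 7 was 0.07. Endothelial markers, 8 tested of 9, summed to 1285 and 1595 at E11.5 and 769 and 822 at E18.5. Liver markers, 6 tested of 8, summed to 128 and 143 at E11.5, 1273 and 3281 at E14.5, 582 and 929.6 at E16.5 and 3385 and 3671 at E18.5, lower at E16.5 than at E14.5. Markers of the exocrine pancreas, 3 tested of 7, summed to 1042 and 1495 at E11.5 and 78.9 and 95.9 at E18.5. Of these Cpa1 (-4.92 ± 0.28) and Pnliprp2 (-4.60 ± 0.34) fell, and Cela1 (0.55 ± 0.33) did not pass. None of the 56 markers tested was at 0 on any of the 9 arrays. The part of these shifts in the values of the replication genes was not tested.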

How the data were processed

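Per the labels' protocols, RNA was extracted with Trizol and labelled with biotin by the array maker's single cycle protocol. The table deposited by the authors held linear intensity, 1 signal per probe set for 45101 probe sets on 10 arrays. Each array's mean after trimming 2% at each end was 125, read from the values. The software behind the signals is not given in the sources used here. Wash runs were told apart by the hybridization date in the authors' deposited settings files. These hold other content than expression (chip type, wash and scan settings). Control probe sets (64) were left out. Each of 9 arrays (without E12.5 replicate 2) was scaled to a 75th percentile of 142, 16 was added and log2 taken. A probe set was tested when 2 or more arrays reached the median of all values (47.7), 27510 in all and 13305 genes by brightest probe set. Symbols came from the platform annotation.

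Tests used limma 3.58.1 in R 4.3.3 (lmFit, 1 mean per stage, eBayes with intensity trend, 4 residual degrees of freedom), two-sided, with Benjamini-Hochberg adjustment over all probe sets tested and 0.05 as the threshold. Changes are log2 ± SE, and the small number of arrays limits precision. The procedure was run on simulated data with independent normal noise for each probe set and array. Those data held no wash run effect and no offset of an array or a group of genes. The run therefore does not bear on such effects here. Figures used Python 3.11.15 and matplotlib 3.10.9. The members, lists, 9-array fit and rule for named genes were chosen with earlier results of these data known. Signals on every array are given for the gene with the deepest called change in each role and the 3 deepest called per step, and for further genes chosen after their values were seen, namely Gmnn, Orc3, Pole, Pcna, Lig1, Tk1 and both Mcm5 probe sets. Of the lists for other replication genes, S phase entry and mitosis the 4 largest called changes are named. Cell type markers are given as sums and counts, and those named were chosen after their values were seen.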

Additional observations from a re-analysis of the deposited data

How the results depend on the processing

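With all 10 arrays 0 genes were called lower in any step or over the span in limma and 0 changed by the F test (8 lower over the span and 4 by F at an unadjusted p under 0.05). Of all probe sets tested in that fit 302 of 28857 were called over the span, against 7215 of 27510 in the reported fit. No share of all genes is given beside the counts of the other settings below. In every other alternative run the span had 15 to 21 genes lower and the F test 18 to 28, and with 1 array left out 15 to 19 and 18 to 28. Leaving out 1 array gave 0 to 15 lower in the step from E14.5 to E16.5, 0 to 6 lower and 0 to 1 higher from E11.5 to E14.5, 0 to 1 higher from E16.5 to E18.5 and 0 to 2 higher over the span. Without the intensity trend the step from E14.5 to E16.5 had 1 gene lower. The first step had 0 lower after quantile normalization, with 1 added, with no filter, without the trend and with the replicate block. It had 2 without both E12.5 arrays, on values as deposited and with 64 added, 3 without _x_at and _s_at sets, and 4 with probe sets averaged. In it 1 gene was higher on values as deposited and 1 with probe sets averaged. Over the span 1 gene, Rfc1, was higher on the deposited scale and after quantile normalization, and 1 gene was higher from E16.5 to E18.5 after quantile normalization. The cause of these differences was not tested.

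The replicate numbers share no stated origin, and deviations of same-numbered arrays correlated at -0.0729 to 0.0361 over 6 pairs of stages, so the numbers were not taken to pair arrays. With the replicate block 17 genes were lower over the span, 8 in the step from E14.5 to E16.5 and 23 changed by the F test. Changes from E11.5 to E18.5 that turned direction were all uncalled in the reported fit. On values as deposited Orc1, Orc2 and Pold1 read 0.028, 0.050 and 0.12. After quantile normalization Mcm3, Orc2, Gins4 and Pold1 read 0.027, 0.018, 0.11 and 0.19. With probe sets averaged Mcm5, Orc2 and Fen1 read -0.062, 0.10 and -0.32, and without _x_at and _s_at sets Mcm5 and Fen1 read -1.19 and -1.04, both called. Leaving out 1 array gave -0.16 to 0.77 for Mcm5, -0.32 to 0.12 for Orc1, -0.24 to 0.083 for Orc2, -0.13 to 0.19 for Orc3, -0.73 to 0.042 for Orc6, -0.32 to 0.55 for Gmnn, -0.35 to 0.082 for Gins4, -0.64 to 0.14 for Pcna, -0.35 to 0.71 for Rfc4, -0.45 to 0.44 for Pold1 and -0.16 to 0.95 for Fen1, the sign turning without an E11.5 array, and for Orc2, Orc3 and Pold1 also without an E18.5 array.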
